A study of Mus musculus with 11 samples.

Results

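The 10 genes described here are secreted factors of the Wnt pathway, 7 ligands (Wnt2, Wnt4, Wnt5a, Wnt6, Wnt7b, Wnt9b and Wnt16) and 3 secreted modulators (Sfrp1, Sfrp2 and Dkk3). They were chosen by symbol among the 28692 genes of the count matrices, and all 10 were found there. Their RNA was followed by single-cell RNA-seq (10x Chromium, which counts unique molecular identifiers, UMIs, near the 3′ end of each RNA) in tubular segments, in epithelium classed as failed repair tubular epithelial cells (frTEC) and in stroma of the mouse kidney. The kidneys came from male C57Bl/6 mice, with the injuries set at 10 weeks of age and no transgene or mutant allele named for any group. In the UIR group (unilateral ischemia-reperfusion, 3 libraries) the left renal pedicle had been clamped for 30 minutes at a body temperature of 37 °C. In the UUO group (unilateral ureteral obstruction, 3 libraries) the left ureter had been tied for good. Both were harvested at Day 28, and the control group (5 libraries) came from naive mice matched for age, sex and strain. The controls were made in 3 batches, and no batch is given for the UIR and UUO libraries, so batch and injury cannot be told apart. The study's methods give as many mice as libraries in each group, but no label ties a library to a mouse, and the p-values below measure the spread between these libraries. Replicates are numbered by their order within a group.

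Wnt ligands are lipid-modified glycoproteins that bind Frizzled receptors with the co-receptors Lrp5 and Lrp6, which stabilizes β-catenin (canonical signaling), or with receptors such as Ror2 and Ryk, which act on cell polarity and movement (non-canonical signaling). Secreted frizzled-related proteins bind Wnt ligands outside the cell, and Dkk3 is a divergent member of the Dickkopf family, whose other members block Lrp5 and Lrp6. In the developing kidney, Wnt9b from the ureteric bud induces Wnt4 in the mesenchyme, Wnt4 drives the change from mesenchyme to epithelium, and Wnt7b from the collecting duct shapes the medulla.

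Of 85847 barcodes called as cells, 40498 were kept, and 215 of the 40282 barcode sequences occurred in more than 1 library. The libraries held 91920461 to 110914244 UMIs in the control group, 82522753 to 117043590 in the UIR group and 49503312 to 60918546 in the UUO group. Between 57.0 and 78.5% of called barcodes had over 30% mitochondrial UMIs in the control libraries, 23.6 to 36.8% in the UIR and 3.15 to 7.66% in the UUO libraries, and these were removed. Classes were named from marker genes, and 13.1% of kept cells stayed unnamed. Control libraries held too few cells of the stromal classes Fibro 1 and Fibro 2 to be compared (7 and 6 cells in all). In the injured groups principal cells and cells of the distal tubule and loop of Henle carried less of their own markers. The summed level of 5 loop of Henle markers was 23900 to 30810 CPM (UMIs scaled to the total of the class in a library, on the usual counts-per-million scale) in control, 12640 to 13320 in UIR and 7012 to 8414 in UUO libraries. Macrophage markers in the same class summed to 0 to 5.08 CPM in control, 28.8 to 58.1 in UIR and 46.9 to 53.9 in UUO libraries. Distal tubule markers in the distal tubule summed to 5462 to 11420 CPM in control, 1406 to 2605 in UIR and 476.7 to 945.1 in UUO, and principal cell markers in principal cells to 18030 to 28280, 8092 to 9555 and 2927 to 3634 CPM. The part of these shifts in the results below was not tested.

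The members were found in different classes. In the controls, Wnt4 and Wnt9b were highest, of the 9 classes compared, in principal cells of the collecting duct, Wnt7b was highest in frTEC, Sfrp1 was high in the distal tubule and the loop of Henle, and Sfrp2 was highest in the stromal class Fibro 3. In the injured kidneys, Wnt4 was also high in distal segments and in Fibro 1, 74.3% of the Wnt2 UMIs of UIR kidneys were in Fibro 1 (in control, 11 of 12 were in endothelial cells), and Wnt16 was highest in frTEC. Wnt6 reached 11 UMIs over all control cells, 54 over all UIR cells and 59 over all UUO cells, and it passed the filter on low counts in no class. The other 9 members passed it in 1 to 7 of the 9 classes. Levels are given in CPM, and the log2 fold changes come from edgeR (quasi-likelihood) with p-values adjusted by Benjamini-Hochberg (a call is an adjusted p under 0.05). In the plain CPM ratios, the median gene of a distal segment stood up to 0.43 (log2) further above control than in the fit, which scales each library so that most genes do not move, so the fold changes are relative to that shift.

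**Figure D1:**
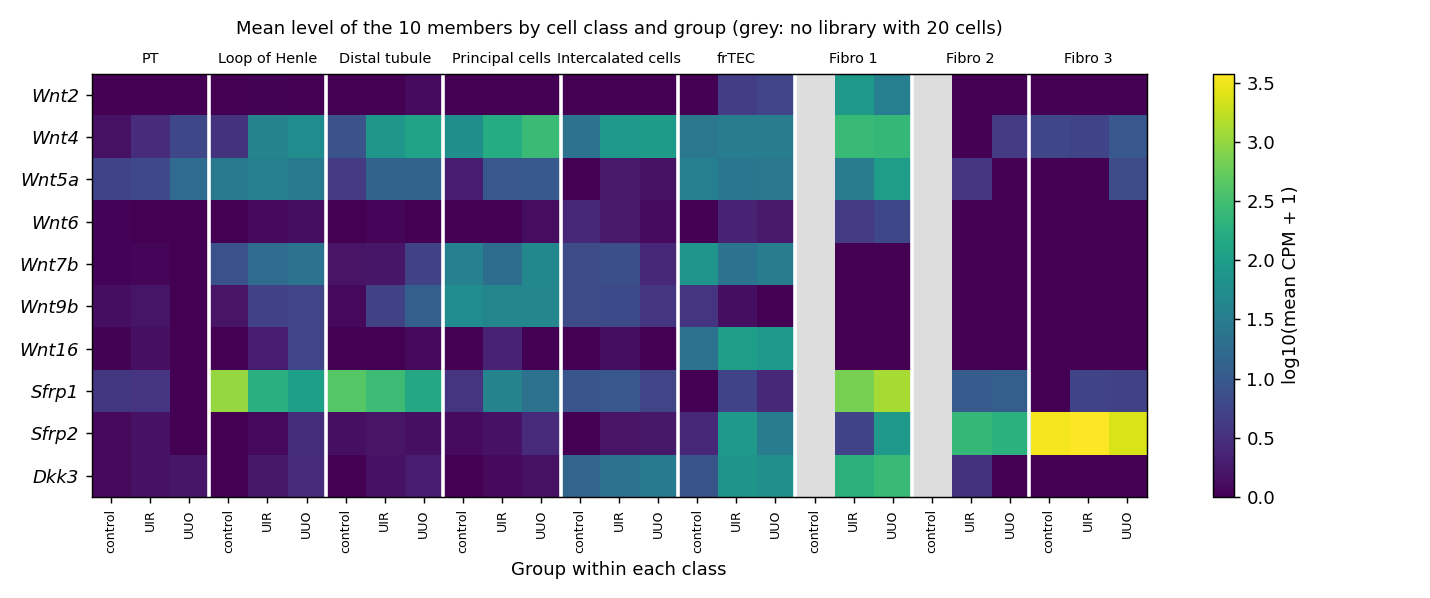
Mean level of each of the 10 members in 9 cell classes of control, UIR and UUO kidneys, as log10 of the mean CPM over libraries plus 1; grey columns had no library with 20 cells. Sfrp2 in Fibro 3 (up to 3801 CPM) and Sfrp1 in Fibro 1, distal tubule and loop of Henle are the highest levels, and the Wnt4 row is brighter in the injured columns of the distal segments.

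Wnt4 (chr4:137277489-137299726, plus strand, GRCm38), the ligand that drives nephron formation, rose in all 4 distal segments in both models. In the loop of Henle, control libraries 1 to 5 held 1.75, 0, 5.25, 0 and 4.77 CPM, the UIR libraries 35.1, 42.0 and 40.8 CPM, and the UUO libraries 49.7, 51.6 and 58.7 CPM. Every injured library lay above every control library. Wnt4 rose by 3.68 ± 0.39 (log2, SE) in UIR (adjusted p = 1.08e-07) and by 4.11 ± 0.37 in UUO (adjusted p = 5.83e-09). The level in the injured cells depended on the cluster. In tubular cluster 11, which held most control cells of the segment, Wnt4 stood at 1.69 CPM (95% Poisson interval 0.349 to 4.95) in 259 control cells and at 1.83 CPM (0.0463 to 10.2) in 68 UIR cells. In tubular cluster 0, it stood at 32.4 CPM in 891 UIR cells and 29.5 CPM in 348 UUO cells. The 6 control cells there held 2 UMIs of Wnt4 in a small pool, too few to set a control level. In tubular cluster 2, which held no control cell, it stood at 64.6 CPM in UIR and 68.2 CPM in UUO cells. The UIR level in cluster 11 lay within the counting interval of the control. No cluster of this segment gave a test of Wnt4 against control, so the rise is one of the class.

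Of the 10 members, 6 were tested in this segment. In UIR, 1 was higher and 1 lower, against 30.3% of 11539 genes called. In UUO, 3 were higher and 1 lower, against 36.2% of all genes. The UIR share is near that background. Wnt16 and Wnt9b, with 0 and 1 control UMIs, passed the filter on low counts only through the injured libraries. The medians of the members are partly set by that filter. The median log2 fold change over the 6 tested members was 1.75 in UIR and 1.97 in UUO as fitted. With genes absent from controls set at their bound it was 1.35 in UUO and, over 5 members, 0.91 in UIR, where Wnt16 lay under its bound and was left out, against 0.08 and 0.07 over all genes. UIR and UUO were set against the same control libraries here and in every class.

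In the distal tubule, Wnt4 stood at 8.27, 4.01, 4.41, 8.0 and 11.9 CPM in the control libraries, at 60.7, 72.9 and 95.2 CPM in UIR and at 76.5, 125 and 145 CPM in UUO. All injured libraries lay above all controls, and UIR and UUO overlapped. The groups' cells sat in different clusters: tubular cluster 3 held 311 UIR, 185 UUO and no control cells, and the controls were in clusters 4, 13 and 15 (267, 159 and 205 cells). The rise was 2.96 ± 0.26 in UIR (adjusted p = 1.69e-08) and 3.50 ± 0.26 in UUO (adjusted p = 4.44e-10). Tubular clusters 4 and 13 of this class also carried principal cell markers among their leading genes, and without them the rise was 4.44 and 4.94 (adjusted p = 1.08e-09 and 2.9e-11). That left cluster 15 alone for control and mainly cluster 3 for the injured groups, so unlike cells were compared. Cluster 3 itself had 1 distal tubule and 1 principal cell marker among its leading genes against all other cells. Within tubular cluster 13 alone, Wnt4 was higher by 2.24 ± 0.33 in UIR than in control (adjusted p = 3.96e-05), where 8.04% of 5636 genes were called. Of 4 members tested in the distal tubule, 3 were higher and 1 lower in UIR and in UUO, against 32.8 and 42.4% of 10040 genes.

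Principal cells, the water and sodium reabsorbing cells of the collecting duct, held the highest Wnt4 level of the control tubule. Control libraries stood at 84.2, 46.5, 26.9, 55.2 and 81.2 CPM, the UIR libraries at 165, 152 and 166 CPM and the UUO libraries at 277, 355 and 200 CPM. All injured libraries lay above all controls, and all UUO libraries above all UIR libraries. The rise was 1.29 ± 0.22 in UIR (adjusted p = 0.000391) and 2.08 ± 0.22 in UUO (adjusted p = 4.1e-07), while UUO over UIR, 0.78 ± 0.22, missed the threshold (adjusted p = 0.0516). In tubular cluster 14, which held 110 control and 128 UIR cells, Wnt4 was higher in UIR by 1.32 ± 0.21 (adjusted p = 8.82e-05), where 4.85% of 5733 genes were called. Only 9 UUO cells were in cluster 14, and 224 were in tubular cluster 9, which held no control cell, so the UUO rise had no test within a cluster. Of 4 members tested in principal cells, 2 were higher and 1 lower in UIR, against 16.9% of 9661 genes, and 2 were higher in UUO, against 31.8%.

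In intercalated cells, the acid-base regulating cells of the collecting duct, Wnt4 stood at 16.8, 54.3, 8.16, 17.7 and 13.6 CPM in control, at 76.2, 89.5 and 74.3 CPM in UIR and at 69.3, 82.9 and 121 CPM in UUO libraries. Control library 2 stood apart from the other controls but below every injured library. Wnt4 rose by 1.46 ± 0.31 in UIR (adjusted p = 0.00256) and by 1.62 ± 0.32 in UUO (adjusted p = 0.000744), and it was the 1 call among 2 members tested, against 15.9 and 22.9% of 8623 genes. Between the models no member was called, against 0.22%. Without tubular cluster 19, whose leading genes included principal cell markers, the rise was 2.87 and 2.93 (adjusted p = 9.51e-05 and 5.73e-05). That left mainly tubular cluster 7 in control (140 cells, and 34 in cluster 5) and cluster 5 in UUO (165 cells, and 34 in cluster 7). Within cluster 19 UIR differed from control by 0.42 ± 0.43 (adjusted p = 0.766). Without the control batch of replicates 4 and 5, the UIR value was 1.02 (adjusted p = 0.0831).

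Wnt4 was not called in frTEC or PT. In frTEC it stood at 25.6 ± 8.80 CPM (SD, n = 3) in control, 30.9 ± 5.53 (n = 3) in UIR and 32.0 ± 2.64 (n = 3) in UUO. In podocytes it stood at 44.9 ± 20.1 CPM (SD, n = 5) in control and 60.4 ± 8.71 (n = 3) in UIR. In the proximal tubule (PT) it stayed under 1 CPM in all controls, and the UIR value of 1.73 ± 0.57 missed the threshold (adjusted p = 0.0581); no member was called among the 3 tested in PT, against 9.49% of 11398 genes called for UIR, 5.45% for UUO and 0.526% between the models. In Fibro 1, Wnt4 stood at 270, 307 and 199 CPM in UIR and at 293, 388 and 37.6 CPM in UUO libraries, which overlapped, and too few control cells were there to compare. Summed over all stromal cells, Wnt4 had 2 UMIs in 4 control libraries, 688 in UIR and 809 in UUO, a ratio to control of 36.7 (95% interval 10.1 to 303, counting error only) and 45 (12.4 to 372), with adjusted p = 0.0221 and 0.0242, where 7.04 and 6.32% of 10164 genes were called. Over all 5 control libraries, 94 of 120 stromal cells were Fibro 3, whereas 342 of 801 UIR and 424 of 751 UUO stromal cells were Fibro 1, so the sum mixes unlike cells. Leaving out 1 library at a time kept the Wnt4 call in 6 of 10 cases in UIR and 5 of 10 in UUO, and without mixed clusters the UIR value was 0.52 (adjusted p = 0.928). In the same sum Sfrp1 was higher (3.05 ± 0.75 in UIR and 3.68 ± 0.74 in UUO), Sfrp2 was lower (-2.95 ± 0.70 and -2.56 ± 0.68), and Wnt5a was higher in UUO, at 257 UMIs against 2 in control (ratio 14.3, 3.91 to 119). Each of these calls was lost without at least 1 library. As a measure of free RNA, macrophages held 4.19 CPM in UIR and 5.59 CPM in UUO (all cells summed), and the droplets without cells held 8.56 to 16.2 CPM in UIR, 18.2 to 27.5 in UUO and 0.494 to 3.11 in control libraries. With 20% of the UMIs of each class subtracted as such free RNA, Wnt4 stayed called in the 4 segments in both models.

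**Figure D2:**
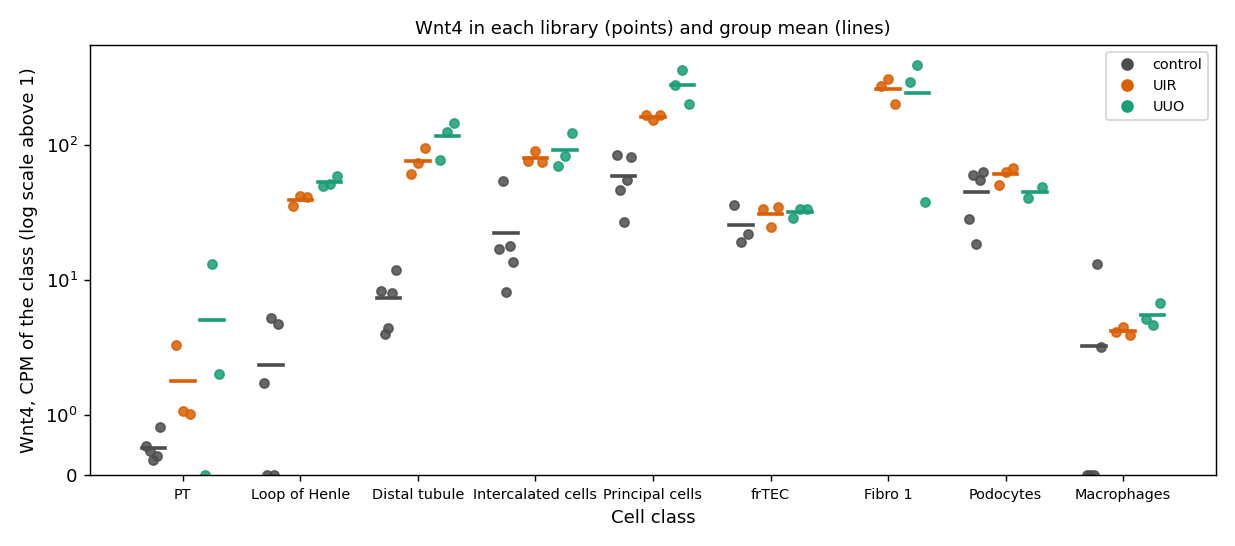
Wnt4 in CPM (log scale above 1) by cell class, with 1 point per library and a line at the group mean, for control, UIR and UUO. In the distal tubule, loop of Henle, intercalated and principal cells every injured library lies above every control library, whereas the groups overlap in frTEC, podocytes and macrophages.

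Wnt9b (chr11:103727364-103749821, minus strand), the ureteric bud ligand upstream of Wnt4, was not called in principal cells and rose in the injured distal tubule. In principal cells the controls held 60.3, 54.7, 72.9, 33.4 and 48.7 CPM, UIR 30.8, 37.9 and 62.3 CPM, and UUO 31.3, 73.3 and 28 CPM. These overlapped, with -0.31 ± 0.31 in UIR (adjusted p = 0.581) and -0.23 ± 0.30 in UUO (adjusted p = 0.619). Within tubular cluster 14 it was higher in UIR by 1.38 ± 0.33 (adjusted p = 0.0103), at 57.0 against 21.9 CPM, while tubular cluster 20, which held 100 control cells and 14 UIR cells, stood at 80.4 CPM in control. In the distal tubule 1 UMI was counted over 5 control libraries, against 28 in UIR and 52 in UUO. Wnt9b thus passed the filter on low counts there only through the injured libraries. By library, the UIR cells held 1.62, 1.61 and 8.61 CPM and the UUO cells 12.2, 14.0 and 7.73 CPM, and droplets without cells 0.123 to 0.622 CPM in control, 1.19 to 1.79 in UIR and 2.03 to 2.33 in UUO. As for Wnt4, the injured cells of this class sat mainly in tubular cluster 3, which held no control cell. The ratio to control was 19.7 (95% interval 3.25 to 804, counting error only) in UIR and 58.7 (10.1 to 2360) in UUO, with adjusted p = 0.0124 and 8.47e-05. The UIR call was lost without control replicate 1 (adjusted p = 0.0539) and without UIR replicate 3 (adjusted p = 0.115), which held 20 of the 28 UMIs, as well as with a mitochondrial limit of 15% (adjusted p = 0.101) and without control replicates 2 and 3 (adjusted p = 0.0598). Wnt9b was counted in the loop of Henle at 3.86 CPM in UIR and 3.93 in UUO against 1 control UMI, with adjusted p = 0.104 and 0.0834.

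Wnt7b (chr15:85535437-85582473, minus strand), a collecting duct ligand, was called lower in principal cells in UIR and higher in the loop of Henle in UUO. The loop of Henle in UIR (0.91, adjusted p = 0.0991) and principal cells in UUO (0.35, adjusted p = 0.362) were not called. In principal cells the controls held 29.5, 46.5, 34.5, 27.6 and 45.5 CPM, UIR 13.5, 20.7 and 18.0 CPM, and UUO 41.9, 70.2 and 26.0 CPM. The UIR libraries lay below all controls, and the UUO libraries overlapped with them. Wnt7b fell by 1.10 ± 0.32 on the log2 scale in UIR (adjusted p = 0.0221). The call was lost without control replicate 2 or 5 or UIR replicate 1 or 3 (-0.95 to -1.11, adjusted p = 0.0577 to 0.0915). It was also lost without either control batch of 2 libraries (-1.0 and -1.07, adjusted p = 0.0918 and 0.106). With Leiden resolution 2 the value was -0.79 (adjusted p = 0.216) and with doublets kept -0.37 (adjusted p = 0.536). UUO was higher than UIR by 1.45 ± 0.30 (adjusted p = 0.00835), the 1 call among 4 members there against 3.38% of all genes, and without UUO replicate 2 the difference was 1.0 (adjusted p = 0.0847), while with a mitochondrial limit of 15% it was 1.34 (adjusted p = 0.184). Within tubular cluster 9, which held 136 UIR and 224 UUO cells, it was 1.02 ± 0.30 and was not called (adjusted p = 0.632). Loop of Henle controls held 6.99, 0, 18.4, 0 and 9.54 CPM and the UUO libraries 22.3, 18.9 and 24.4 CPM. There it rose in UUO by 1.25 ± 0.40 (adjusted p = 0.0172), a call lost without control replicate 1 (1.20, adjusted p = 0.0591) or 4 (0.98, adjusted p = 0.0503), without both replicates 4 and 5 (0.99, adjusted p = 0.103), and with a mitochondrial limit of 50% (0.31, adjusted p = 0.213) or 15% (2.36, adjusted p = 0.14).

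Wnt5a (chr14:28504750-28527448, plus strand), a ligand of the non-canonical branch, was not called in the loop of Henle, with 26.9 ± 12.6 CPM in control (SD, n = 5), 34.6 ± 1.06 in UIR (n = 3) and 26.8 ± 4.59 in UUO (n = 3). In the distal tubule, the controls held 1.77, 1.34, 1.10, 5.33 and 4.98 CPM, UIR 11, 10.2 and 17.2 CPM, and UUO 12.2, 16.2 and 9.84 CPM. Between these groups, whose cells again sat in different clusters, it rose by 1.84 ± 0.40 in UIR (adjusted p = 0.000918) and 1.78 ± 0.42 in UUO (adjusted p = 0.0015). Without clusters 4 and 13 the values were 1.12 in UIR (adjusted p = 0.0357) and 0.80 in UUO (adjusted p = 0.153). With a mitochondrial limit of 15%, both calls were lost (0.87 in UIR, adjusted p = 0.228, and 0.59 in UUO, adjusted p = 0.44). Droplets without cells held 0.767 to 4.46 CPM of Wnt5a in control, 3.51 to 6.41 in UIR and 4.24 to 13.2 in UUO. The UUO droplets overlapped with the UUO distal tubule. In Fibro 1, UIR libraries held 29.1, 37.9 and 24.1 CPM and UUO libraries 98.0, 74.1 and 120 CPM, so that every UUO library lay above every UIR library. UUO exceeded UIR by 1.59 ± 0.26 (adjusted p = 0.00721), the 1 call among 5 members there, where 1.08% of 8599 genes were called. The call was lost without UIR replicate 1 (1.56, adjusted p = 0.052) and replicate 3 (1.43, adjusted p = 0.0567) and with a mitochondrial limit of 50% (1.30, adjusted p = 0.113). The cells came from different clusters: stromal cluster 7, at 139 CPM (117 to 164), held 71 UUO cells and no UIR cell, while stromal clusters 2, 1 and 6 held 173, 92 and 74 UIR cells. All cells of stromal cluster 7 came from UUO replicates 1 and 2 (55 and 16). UUO replicate 3, the library with the highest level, had 70 cells in stromal cluster 1 and 28 in stromal cluster 8. Within stromal cluster 2, UUO differed from UIR by 0.46 ± 0.43, which was not called (adjusted p = 0.925). Against the other stromal cells, stromal clusters 2 and 6 carried frTEC markers among their leading genes, and without them the difference was 2.64 (adjusted p = 0.0991).

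Wnt2 (chr6:17988940-18030585, minus strand), a ligand of the canonical branch, was counted in Fibro 1 at 151, 57.8 and 48.2 CPM in UIR and at 46.9, 53.4 and 3.42 CPM in UUO libraries. These overlapped (-1.07 ± 0.46, adjusted p = 0.503). Within Fibro 1 it was concentrated in stromal cluster 6, at 223 CPM (192 to 258) in 74 UIR cells and 145 CPM (104 to 198) in 23 UUO cells, against 13.0 and 22.1 CPM in stromal cluster 2. Wnt4 was also high in stromal cluster 6, at 668 CPM in UIR and 512 CPM in UUO.

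Sfrp1 (chr8:23411502-23449632, plus strand), a soluble Wnt-binding antagonist, fell in the segments where it was high and appeared in principal cells where it was near 0. In the loop of Henle, control libraries held 1714, 518, 766, 1467 and 656 CPM, UIR 151, 236 and 179 CPM, and UUO 83.5, 114 and 110 CPM. The lowest control was above the highest injured library. Sfrp1 fell by 2.69 ± 0.29 on the log2 scale in UIR (adjusted p = 1.62e-07) and by 3.58 ± 0.31 in UUO (adjusted p = 2.64e-09). As with Wnt4, the cluster mattered. In tubular cluster 11, Sfrp1 stood at 964 CPM (918 to 1010) in control and 808 CPM (735 to 887) in UIR cells, which were not called different (-0.49 ± 0.39, adjusted p = 0.749). In tubular cluster 0 it stood at 212 CPM in UIR and 171 CPM in UUO, and in tubular cluster 2 at 54.8 and 48.1 CPM.

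In the distal tubule, Sfrp1 stood at 517, 456, 419, 291 and 451 CPM in control, 271, 370 and 206 CPM in UIR and 155, 108 and 163 CPM in UUO libraries. UIR overlapped with control, whereas UUO lay below both. It fell by 0.94 ± 0.19 in UIR (adjusted p = 0.000471) and by 2.03 ± 0.21 in UUO (adjusted p = 4.11e-08), and UUO differed from UIR by -1.08 ± 0.22 (adjusted p = 0.00512), the 1 call among 4 members where 3.43% of all genes were called. That difference was -0.89 (adjusted p = 0.0585) without UUO replicate 2. The fall in UIR was -0.43 (adjusted p = 0.25) with doublets kept and -0.25 (adjusted p = 0.267) with a mitochondrial limit of 50%. Without tubular clusters 4 and 13 it was -1.21 (adjusted p = 2.02e-05). Within cluster 13 it was -2.33 ± 0.42 (adjusted p = 0.000428), where 8.04% of 5636 genes were called, and within cluster 4 -1.07 ± 0.61 (adjusted p = 0.294). In tubular cluster 3, which held 311 UIR and 185 UUO cells and no control cell, UUO differed from UIR by -1.24 ± 0.25 (adjusted p = 0.0225), where 1.36% of 9914 genes were called. In principal cells, the controls held 2.81, 2.73, 3.84, 1.45 and 1.62 CPM, UIR 21.8, 53.1 and 41.3 CPM, and UUO 20.1, 12.2 and 30 CPM. Sfrp1 rose there by 3.97 ± 0.50 in UIR (adjusted p = 1.4e-05) and 2.95 ± 0.56 in UUO (adjusted p = 0.000347), from 6 UMIs in control. With Leiden resolution 2 the UUO value was 0.85 (adjusted p = 0.107). The rise sat in tubular cluster 9, which held no control cell (68.9 CPM in UIR and 25.0 in UUO), while tubular cluster 14 stood at 3.65 CPM in control and 3.61 in UIR. Droplets without cells held 23.6 to 78.2 CPM of Sfrp1 in control, 27.0 to 66.6 in UIR and 26.9 to 66.9 in UUO libraries, and loop of Henle markers in principal cells summed to 34.9 to 1028 CPM in control, 104.5 to 1124 in UIR and 21.0 to 237.9 in UUO libraries. In Fibro 1, Sfrp1 stood at 656, 797 and 628 CPM in UIR and 1154.5, 960 and 1720.1 CPM in UUO, which did not overlap, with a difference of 0.86 ± 0.24 that missed the threshold (adjusted p = 0.156). Without stromal clusters 2 and 6 the difference was 1.84 ± 0.39 (adjusted p = 0.0245), and within stromal cluster 2 it was 0.02 ± 0.19 (adjusted p = 0.994). Leaving them out kept mainly stromal cluster 1 in UIR (92 cells) and stromal clusters 1, 7 and 8 in UUO (203, 71 and 47 cells), so unlike cells were compared. Within stromal cluster 1 the difference was 1.0 ± 0.41 and was not called (adjusted p = 0.262).

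**Figure D3:**
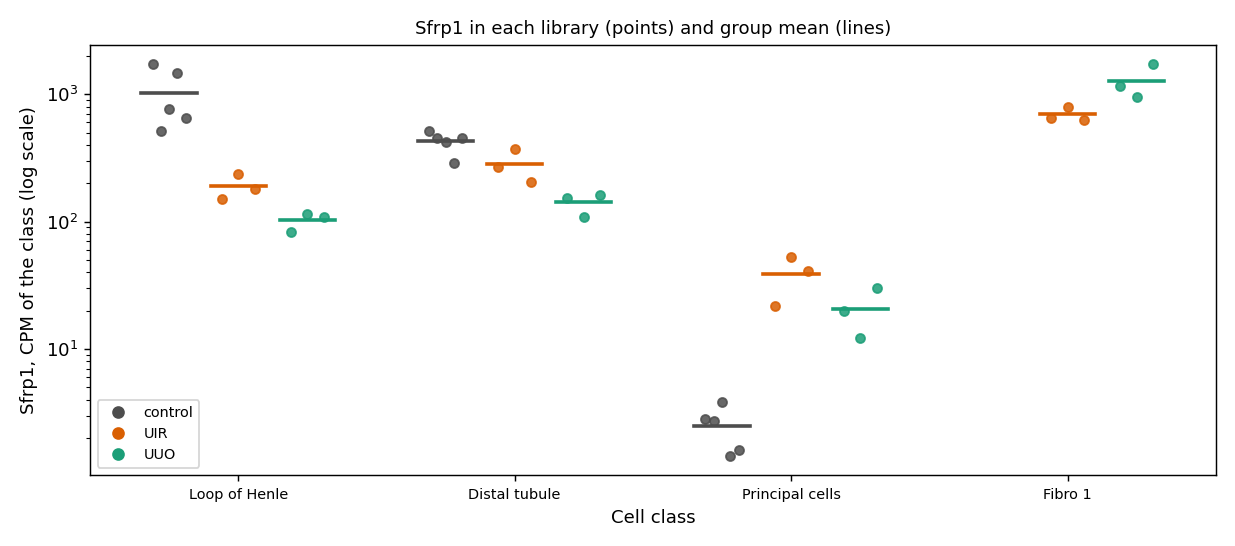
Sfrp1 in CPM (log scale) in the loop of Henle, distal tubule, principal cells and Fibro 1, with 1 point per library and a line at the group mean. The injured points lie below the controls in the loop of Henle and above them in principal cells; control libraries held too few Fibro 1 cells for a point.

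Sfrp2 (chr3:83766321-83774316, plus strand), a related Wnt-binding protein, had the highest level of any member in a single class. Fibro 3 was a stromal class high in Pdgfrb, Des and Itga8, while its other markers, Rgs5 and Cspg4, were higher in Fibro 2. In Fibro 3, control replicates 2 and 3 held 4044 and 2756 CPM, UIR replicate 1 held 3801 CPM, and UUO libraries held 3296, 2119 and 1664.5 CPM. The other control and UIR libraries had under 20 such cells. UUO against control was not called (-0.63, adjusted p = 0.249), where 1.49% of 4170 genes were called. The same cells, as stromal cluster 0 with pools of at least 10 cells and so more control libraries, gave -0.60 ± 0.18, which missed the threshold (adjusted p = 0.0553). In Fibro 2, the class with smooth muscle markers, it stood at 253, 238 and 226 CPM in UIR and at 264 and 121 CPM in 2 UUO libraries, not called where 0.428% of 5601 genes were.

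Wnt16, Dkk3 and Sfrp2 were all highest, among the 4 clusters named frTEC, in the same 1. Tubular cluster 10 held 9 control, 243 UIR and 92 UUO cells. Wnt16 (chr6:22288227-22298522, plus strand), a further Wnt ligand, stood there at 235 CPM (95% Poisson interval 144 to 363) in control, 241 CPM (225 to 258) in UIR and 219 CPM (197 to 244) in UUO, and at 18.5, 17.6 and 9.56 CPM in cluster 16. Dkk3 (chr7:112116017-112159057, minus strand) stood in cluster 10 at 106 CPM (48.3 to 201), 155 CPM (142 to 169) and 165 CPM (145 to 187). For both genes the control interval, from 9 cells, included the UIR and UUO levels. Sfrp2 was counted there with 1 UMI in control (11.7 CPM, 0.297 to 65.5), against 182 CPM (168 to 197) in UIR and 121 CPM (105 to 140) in UUO, and the control interval ended below both.

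Cluster 10 carried Fibro 2 markers and no frTEC marker among its leading genes against the other tubular cells. Against all other cells it carried 2 frTEC markers and no marker of another class. The class comparison mixes unlike cells. In frTEC as a class, Wnt16 stood at 3.97, 38.5 and 22 CPM in control replicates 1, 3 and 5, at 62.4, 81.0 and 150 CPM in UIR and at 60.2, 104 and 76.3 CPM in UUO. Every injured library was above every control library. In UIR, 3 of 6 tested members were higher (Wnt16, Dkk3 and Sfrp2) and Wnt7b was lower, against 5.24% of 10508 genes called. In UUO Dkk3 was higher and Wnt7b lower, against 6.12%. Sfrp2 had 1 UMI in the control libraries compared and 693 in UIR. It thus passed the filter on low counts only through the injured libraries, and the 3 of 6 is partly set by that filter. Its ratio to control in UIR was 59.5 (10.6 to 2350, counting error only), with edgeR adjusted p = 0.0192. Between the models 0 members and 0% of genes were called by edgeR. Stroma markers in the class summed to 7.33 to 342 CPM in control, 1529 to 3900 in UIR and 720 to 3689 in UUO libraries. Without cluster 10, Wnt16 and Dkk3 did not pass the filter on low counts. Control replicate 3 (23 cells of the class, 4 of them in cluster 10) and UUO replicate 3 (20 cells, 2 of them there) then fell under the limit of 20 cells. The fit without cluster 10 thus also had fewer libraries. Sfrp2 in UIR (6.46 ± 3.9, adjusted p = 0.469) and Wnt7b (-1.22 in UIR and -1.52 in UUO, adjusted p = 0.163 and 0.113) were not called. In cluster 16, Sfrp2 stood at 32.0 CPM (24.3 to 41.3) in UIR and 19.1 CPM (10.5 to 32.1) in UUO, against 0 UMIs in 20 control cells. Droplets without cells held 1.42 to 4.76 CPM of Sfrp2 in control, 2.75 to 17.5 in UIR and 14 to 38 in UUO. The UUO level in cluster 16 lay within that range. With doublets kept, the Wnt16 value in UIR was 0.40 (adjusted p = 0.601) in place of 2.25, and the Dkk3 values were 1.12 in UIR (adjusted p = 0.115) and 1.20 in UUO (adjusted p = 0.0795) in place of 3.32 and 3.20. With a mitochondrial limit of 50% Wnt16 in UIR was 0.50 (adjusted p = 0.573). With Leiden resolution 2 the calls for Wnt16 and Sfrp2 in UIR and Dkk3 in UUO were lost, at 2.07, 5.64 and 2.68 (adjusted p = 0.0977, 0.0598 and 0.0644). With all libraries the values were 2.25 for Wnt16, 3.32 and 3.20 for Dkk3 in UIR and UUO, -1.70 and -1.59 for Wnt7b, and 5.82 for Sfrp2 in UIR. Without control replicate 5 all of these calls were lost. The values were then 2.29 for Wnt16 (adjusted p = 0.137), 2.96 and 2.85 for Dkk3 (0.069 and 0.0721), -1.71 and -1.59 for Wnt7b (0.0581 and 0.0774), and 5.17 for Sfrp2 (0.112). Without control replicate 1, the calls for Sfrp2, Wnt16 and Wnt7b in UIR and for Dkk3 and Wnt7b in UUO were lost too (adjusted p = 0.0509 to 0.146). Those for Sfrp2 and Wnt16 were also lost without UIR replicate 3 (adjusted p = 0.0571 and 0.0947), and that for Wnt7b in UUO without UUO replicate 1 or 2 (adjusted p = 0.0503 and 0.0661). Wnt7b sat in clusters 16 and 18, and in cluster 16 it stood at 171 CPM (120 to 236) in 20 control cells, 45.2 CPM (35.9 to 56.1) in 136 UIR cells and 56.0 CPM (40.2 to 76.0) in 63 UUO cells. In cluster 18 it stood at 51.9 CPM in 49 control cells and 52.4 CPM (38.5 to 69.7) in 68 UIR cells, and was not called (adjusted p = 1).

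**Figure D4:**
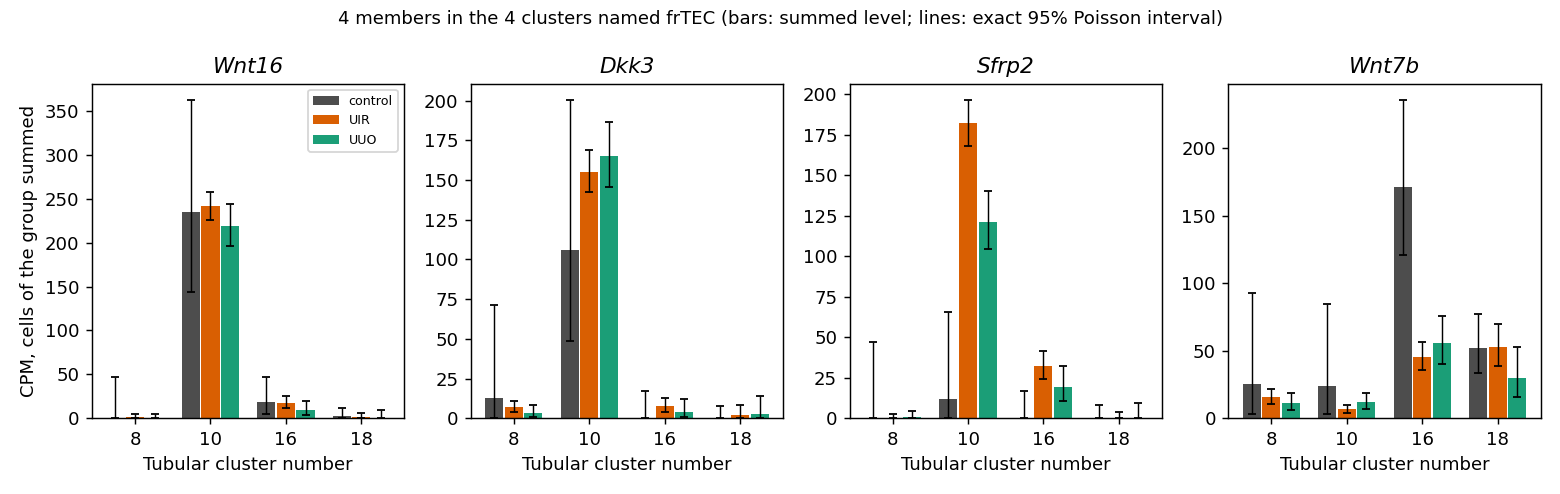
Wnt16, Dkk3, Sfrp2 and Wnt7b in CPM in the 4 tubular clusters named frTEC, with the cells of each group summed; lines are exact 95% Poisson intervals, which cover counting error only. Wnt16, Dkk3 and Sfrp2 peak in cluster 10, where the 9 control cells hold Wnt16 at the level of the UIR and UUO cells, and Wnt7b peaks in the control cells of cluster 16.

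The 250 bases before the annotated starts of Wnt16 and Sfrp2, both high in cluster 10, are shown, since the coordinates above start at the next base. They are RefSeq sequences of GRCm38.p6, plus strand, at chr6:22287977-22288226 and chr3:83766071-83766320, and 6 of 10 members had such a sequence. On both strands, neither a TCF/LEF motif (CTTTG followed by AA, AT, TA or TT, held by 14.8% of 32851 promoters of that length) nor an AP-1 motif (TGAGTCA or TGACTCA, held by 4.46%) was found, so no letter is in capitals.
Wnt16: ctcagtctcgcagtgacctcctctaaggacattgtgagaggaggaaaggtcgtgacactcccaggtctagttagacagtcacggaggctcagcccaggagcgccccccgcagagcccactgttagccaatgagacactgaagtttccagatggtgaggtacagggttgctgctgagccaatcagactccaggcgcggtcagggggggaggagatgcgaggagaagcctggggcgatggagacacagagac
Sfrp2: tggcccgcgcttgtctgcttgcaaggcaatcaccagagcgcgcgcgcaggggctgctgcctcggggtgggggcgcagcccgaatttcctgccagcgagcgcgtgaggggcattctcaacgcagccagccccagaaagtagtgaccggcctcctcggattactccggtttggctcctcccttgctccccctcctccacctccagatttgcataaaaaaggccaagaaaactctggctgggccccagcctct

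Wnt16 was also counted in the loop of Henle, with 0 UMIs over the 5 control libraries, 24 over the UIR and 60 over the UUO libraries. It thus passed the filter on low counts there only through the injured libraries. The UUO libraries held 3.68, 3.43 and 6.93 CPM and the UIR libraries 0.651, 1.36 and 0.870 CPM, and the groups did not overlap. Droplets without cells held 0 to 0.311 CPM of Wnt16 in control, 0.603 to 1.07 in UIR and 1.06 to 3.25 in UUO libraries, so the UIR cells stood near the droplets and the UUO cells above them. UUO was at least 2.75-fold higher than the level that 3 counts over the control group would give (1.56 CPM; adjusted p = 0.0141), while the UIR level lay under it. The UUO call was lost with a mitochondrial limit of 15% (adjusted p = 0.442) and without control replicates 4 and 5 (adjusted p = 0.053). UUO exceeded UIR by 2.18 ± 0.43 (adjusted p = 0.00713), the 1 call among 6 members, where 2.38% of all genes were called. The cells of the models sat in different clusters, with 258 UIR and 387 UUO cells in cluster 2 and 891 and 348 in cluster 0, and within cluster 2 the difference was 1.10 ± 0.43 and was not called (adjusted p = 0.826). With doublets kept, the difference was 0.95 (adjusted p = 0.297).

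Dkk3 was otherwise found in Fibro 1, at 181, 201 and 209 CPM in UIR and 243, 301 and 250 CPM in UUO libraries. These groups did not overlap, with a difference of 0.40 ± 0.19 that was not called (adjusted p = 0.583). In intercalated cells it stood at 13.6 ± 5.28 CPM in control (SD, n = 5), 21.6 ± 2.98 in UIR (n = 3) and 28.1 ± 19.1 in UUO (n = 3), and was not called in either model.

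Summed over all kept cells, where fewer cells of a type and less RNA per cell cannot be told apart, 6 members were higher in UIR (Wnt2, Wnt4, Wnt5a, Wnt7b, Wnt16 and Dkk3), against 62.5% of 16098 genes called, and the same 6 and Wnt6 in UUO, against 71.4%. Wnt6 (chr1:74771892-74785322, plus strand) was higher in UUO by 1.66 ± 0.52 (adjusted p = 0.0123), at 0.697 CPM against 0.156 CPM in control, and the UUO level lay within the 0.683 to 1.63 CPM of the UUO droplets without cells (0 to 0.104 in control). Without UUO replicate 1 it was 0.97 (adjusted p = 0.0795), and the call was also lost with free RNA subtracted, with a mitochondrial limit of 15% and without control replicates 4 and 5 (adjusted p up to 0.164). With the 15% limit, Wnt7b was 0.31 in both models (adjusted p = 0.479 in UIR and 0.456 in UUO) and Wnt2 and Wnt16 in UUO were 1.73 and 1.72 (adjusted p = 0.073 and 0.0555), and without mixed clusters Wnt2 in UIR was 1.31 (adjusted p = 0.062). PT made up 6224 of 10240 control cells and 99 of 13326 UUO cells. Without PT and the unnamed cells nearest to it, Wnt7b (both models), Wnt2 and Wnt6 (UUO) were no longer called, Wnt9b was lower in UIR (-0.91), and Sfrp1 and Sfrp2 were lower in both (-1.07 and -1.92 in UIR, -1.69 and -1.73 in UUO), against 34.7 and 48% of 16163 genes called.

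Across the 9 classes, 25 pairs of a member and a class were tested in UIR against control, of which 10 were higher and 4 lower. In UUO against control, 10 of 26 were higher and 3 lower. In UUO against UIR, 3 of 31 were higher and 1 lower. By class, the share of all genes called was 5.24 to 32.8% in UIR, 1.49 to 42.4% in UUO and 0 to 3.43% between the models. Of the higher pairs, Wnt9b in the distal tubule and Sfrp2 in frTEC had 1 control UMI each. Wnt16 in the loop of Henle had 0. These passed the filter on low counts only through the injured libraries. Controls were also low for Wnt4 in the loop of Henle, Sfrp1 in principal cells and Wnt5a in the distal tubule (up to 5.25, 3.84 and 5.33 CPM). The counts of higher pairs are thus partly set by that filter.

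The counts below for the other Wnt pathway genes stand beside the same shares of all genes by class. Their lists were chosen with earlier results of these data known, so the counts and medians are a description only. Axin2, a negative feedback target of β-catenin, was higher in 5 classes in UIR and 4 in UUO. Its loop of Henle level was 0.954 ± 2.13 CPM in control (SD, n = 5), 21.9 ± 6.73 in UIR (n = 3) and 23.3 ± 5.25 in UUO (n = 3), with log2 differences of 4.14 and 4.23 (adjusted p = 0.000102 and 6.28e-05). Ccnd1, the cyclin D1 gene often used as a target, went the other way in distal segments and was lower in 4 classes in UIR and 5 in UUO. In principal cells it stood at 585 ± 81.3 CPM in control, 121 ± 19.2 in UIR and 69.1 ± 18.1 in UUO (adjusted p = 3.43e-08 and 2.91e-10), while in PT it was higher in UUO by 1.57 (adjusted p = 0.00708). Of 13 targets, 6 pairs of gene and class were higher and 4 lower of 31 tested in UIR, and 7 higher and 6 lower of 32 in UUO. Axin2 made up 5 of the 6 higher in UIR and Ccnd1 all 4 lower. The 10 called of 31 are pooled over classes with unlike shares. Of the 31, 7 were tested in frTEC (5.24% of all genes called), 6 in PT (9.49%) and 6 in the loop of Henle (30.3%). The distal tubule (32.8%), principal cells (16.9%) and intercalated cells (15.9%) held 4 each.

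Of 6 polarity genes, 14 of 28 pairs were higher in UIR and 15 of 28 in UUO, and 0 were lower in either by edgeR. Rhou, a gene induced by Wnt signaling, was higher in 5 classes in both models and in principal cells went from 0.886 ± 1.28 CPM in control to 38.7 ± 9.68 in UIR and 88.7 ± 2.38 in UUO (4.90 and 6.09; adjusted p = 3.13e-07 and 6.14e-10). Celsr1, a planar polarity cadherin, was higher in 4 classes in each model. The median over the tested polarity genes was 1.09 in the loop of Henle and 1.20 in the distal tubule in UIR, and 1.28 and 1.74 in UUO, against 0.02 to 0.08 over all genes. Rhou made up 5 of the 14 pairs higher in UIR and 5 of the 15 in UUO. This list too was chosen with earlier results of these data known. Of 15 intracellular genes, 12 of 77 pairs were higher and 2 lower in UIR, and 20 of 83 higher and 2 lower in UUO. Ctnnb1, which encodes β-catenin, was higher in both models in principal cells, distal tubule and loop of Henle, at 117 ± 9.38 CPM in control, 275 ± 47.3 in UIR and 363 ± 25.2 in UUO distal tubule.

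Of 15 other secreted modulators, 0 of 12 pairs were higher and 5 lower in UIR, and 0 of 13 higher and 5 lower in UUO by edgeR. Sostdc1, an antagonist of Wnt and BMP signaling, accounted for 4 of the 5 in each model, and in the loop of Henle stood at 1140 ± 134 CPM in control, 554 ± 21.4 in UIR and 375 ± 69.3 in UUO (-1.26 and -1.82; adjusted p = 7.48e-07 and 2.46e-09). Of 12 other ligands, 3 of 7 pairs were higher and 1 lower in each model. Wnt10a was higher in both models in the distal tubule and the loop of Henle, at 8.85, 43.9 and 32.8 CPM in the loop of Henle. Wnt5b was higher in the loop of Henle, at 0 CPM in every control and 3.38 and 12.8 CPM in UIR and UUO. Wnt11 was lower in frTEC, at 83.6 ± 20.2 CPM in control (SD, n = 3), 3.73 ± 2.92 in UIR and 1.70 ± 2.60 in UUO (edgeR adjusted p = 0.0026 and 0.00208). The frTEC cells of the groups sat in different clusters, so this comparison mixes unlike cells. Tubular cluster 18 held 49 control, 68 UIR and 22 UUO cells, and tubular cluster 8 held 9, 286 and 73. Of 15 receptors and co-receptors, 4 of 63 pairs were higher and 3 lower in UIR, and 7 of 67 higher and 6 lower in UUO. Lgr4, an R-spondin receptor, was lower in 3 classes in both models, and Ryk, a non-canonical Wnt receptor, higher in 2. Of 3 secretion genes, 1 of 10 pairs was higher in UIR and 1 of 11 lower in UUO. Of 7 genes for R-spondin receptors and receptor turnover, 3 of 23 pairs were lower in UIR, and 1 was higher and 4 lower of 23 in UUO.

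**Figure D5:**
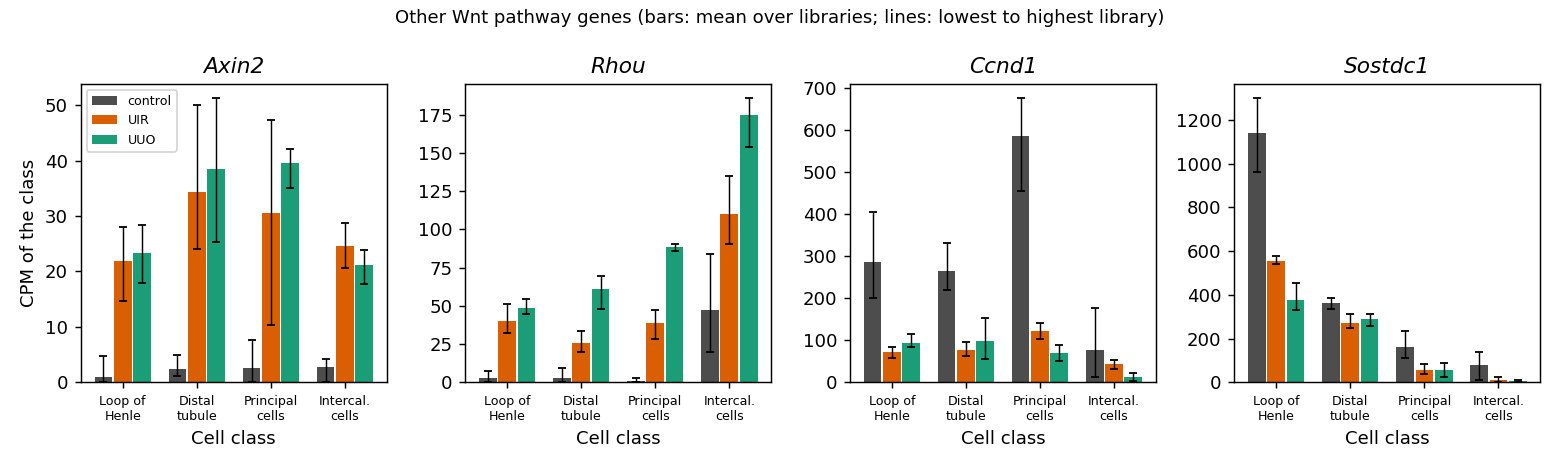
Axin2, Rhou, Ccnd1 and Sostdc1 in CPM in 4 distal segments; bars are the mean over libraries and lines reach from the lowest to the highest library. Axin2 and Rhou are near 0 in the principal cells, distal tubule and loop of Henle of the controls and higher in the injured libraries, while Ccnd1 and Sostdc1 in the loop of Henle and principal cells are highest in the controls.

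The genes whose levels over 43 class-by-group points ran most like a member's are given as a description, since the points share libraries and classes. They were Tpbg for Wnt4 (Pearson r = 0.843), Nav3 and Nkd2 for Wnt2 (0.951 and 0.941), Upk3b for Wnt7b (0.939), Nhlrc4 for Wnt9b (0.895), Oaf for Wnt5a (0.790), Gpr176 for Wnt6 (0.785), A730017C20Rik for Wnt16 (0.948), Adamtsl2 for Sfrp1 (0.808), Gm26771 for Sfrp2 (0.937) and Efs for Dkk3 (0.771). Dkk3 was itself the next closest gene to Wnt6 (0.771).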

How the data were processed

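The authors deposited, for each of 11 libraries, an unfiltered matrix of raw UMI counts per gene and barcode; the submitters' processing notes name Cell Ranger 3.1.0 and mm10, while the study's methods name a later version of it. Barcodes above a cutoff set per library (3488.8 to 8983.3 UMIs) were called without a test. Those from 500 UMIs up to it were called if they differed from the empty-droplet profile. That profile summed barcode ranks 45000 to 90000 by UMIs, which began at 520 UMIs in control replicate 5. Called barcodes under 200 genes or over 30% mitochondrial or 5% hemoglobin UMIs were removed, as were the 7.5% with the highest doublet scores. Cells were clustered (2000 variable genes without the Wnt genes, 40 components, 20 neighbours, Leiden resolution 1.0) and clusters named from markers (mean score of at least 0.25, a lead of 1.15 times, at least 3 markers; frTEC without Spp1 and Krt8), by a rule revised after marker tables were seen. Counts were summed per library and class (at least 20 cells) and tested with edgeR 4.0.16 (R 4.3.3; quasi-likelihood, TMM, filterByExpr, Benjamini-Hochberg over all genes tested in a class), all 3 groups in one fit. The code was tested on simulated data. Alternatives included DESeq2 1.42.0, other cell filters and leaving out libraries; clusters by number, and classes without mixed clusters, were added after seeing the data. Every member was named; of other pathway genes, mainly those called in 2 or more classes, and like genes were the top by correlation. Members and lists were chosen with earlier results of these data known.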

Additional observations from a re-analysis of the deposited data

Results flagged for a closer look

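Of 20 groups of 4 or 5 libraries examined for a library far from the rest, 1 had one, and chance gives about 1 in 20: Wnt4 in intercalated cells of control replicate 2 stood at 54.3 CPM, with the other controls between 8.16 and 17.7 CPM. UUO differed from UIR in 4 cases by edgeR's test within a class: Wnt5a in Fibro 1 (1.59, adjusted p = 0.00721), Wnt7b in principal cells (1.45, adjusted p = 0.00835), Wnt16 in the loop of Henle (2.18, adjusted p = 0.00713) and Sfrp1 in the distal tubule (-1.08, adjusted p = 0.00512). Within single clusters that held cells of both models, the first 3 were smaller and not called (0.46 for Wnt5a in stromal cluster 2, 1.02 for Wnt7b in tubular cluster 9 and 1.10 for Wnt16 in tubular cluster 2; adjusted p = 0.925, 0.632 and 0.826), and Sfrp1 in tubular cluster 3 was called (-1.24, adjusted p = 0.0225). In endothelial cells, which entered no comparison, Wnt4 summed to 16.4 CPM in UUO against 4.65 CPM in control, below the level in the droplets without cells of the UUO libraries (18.2 to 27.5 CPM).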

How the results depend on the processing

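Over 130 comparisons of a member, 2967 of 3197 values under alternatives kept their direction and side of the threshold, 128 lost a call, 101 gained one and 1 reversed: Sfrp1 over all kept cells in UIR was -0.81 (adjusted p = 0.0175) with a mitochondrial limit of 50%. With a limit of 15%, 11 pairs could be tested in UIR and 11 in UUO, against 25 and 26, and with Leiden resolution 2 there were 20 and 21, with no distal tubule, so that part of the falls below is pairs not tested. The 10 pairs higher in UIR became 2 with a limit of 15%, 5 with Leiden resolution 2 and 6 without the control batch of replicates 4 and 5; the 4 lower became 2 under each of these and with doublets kept. The 10 higher in UUO became 16 with no filter on low counts, 6 with 2 groups only in the fit (17 tested), 3 with the 15% limit and 5 with Leiden resolution 2. The 3 higher in UUO than UIR became 9 with no filter, and the 1 lower became 4 with no filter, 2 with 2 groups only or a limit of 15 or 50%, and 0 with Leiden resolution 2 or with markers among the clustering genes, where Sfrp1 in the distal tubule was not tested. Over all kept cells, leaving out PT moved the lower members from 0 to 3 in UIR and 0 to 2 in UUO and the higher from 7 to 4 in UUO. The causes were not tested. Leaving out 1 library gave 7 to 11 higher and 2 to 4 lower in UIR, 9 to 12 and 2 to 3 in UUO, and 1 to 4 and 0 to 2 in UUO against UIR. With the replicate block the counts were 10 and 4, 11 and 4, and 4 and 1; libraries of the same title number (unnumbered titles taken as one number) correlated at -0.107 to 0.425 (13 pairs) and others at -0.403 to 0.286 (26 pairs). Not every same-numbered pair correlated at over 0.1, so the numbers were not taken to pair the libraries, but the highest value of all was that of UIR and UUO replicate 1, and whether they share a batch was not tested. Control principal cells were few (214 over 5 libraries), which limits the depth there.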
